A study of Mus musculus with 4 samples.

Results

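The genes described here are the 3 pocket proteins Rb1, Rbl1 and Rbl2 and the 7 inhibitors of cyclin-dependent kinases (CDKs) Cdkn1a, Cdkn1b, Cdkn1c, Cdkn2a, Cdkn2b, Cdkn2c and Cdkn2d. They were chosen by gene symbol, which found all 10 genes on 14 of the 36065 RefSeq transcript records, among 27207 genes in all. Their transcripts were measured by RNA sequencing in primary heart muscle cells of CD1 mice at postnatal day 1, plated in culture dishes. Cells were mock transfected, or received at plating (reverse transfection with Lipofectamine RNAimax) 50 nM of a microRNA mimic, a synthetic RNA that acts like the mature microRNA. The mimics were cel-miR-67, a nematode microRNA used as a control, the human hsa-miR-590-3p and the human hsa-miR-199a-3p, and RNA was collected after 72 h. There was 1 library per condition, so no difference below has a replicate check and no significance test was possible.

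Pocket proteins bind E2F transcription factors and hold the genes of S phase shut. Cyclin D bound to CDK4 or CDK6, and later cyclin E bound to CDK2, phosphorylate them and so release E2F. CDK inhibitors act upstream of this step. The INK4 proteins (p16 from Cdkn2a, and the products of Cdkn2b, Cdkn2c and Cdkn2d) bind CDK4 and CDK6. The CIP/KIP proteins (the products of Cdkn1a, Cdkn1b and Cdkn1c) bind cyclin-CDK complexes more broadly. Mouse heart muscle cells leave the cell cycle in the first days after birth, and both protein families take part in keeping them out of it.

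The mouse mature microRNA of the same name as one of the mimics is shown because its seed, bases 2 to 8 in capitals, is the part that pairs with target transcripts. RefSeq (GRCm38.p6) places it at chr1:162217883-162217904 on the plus strand and at chr9:21496498-21496519 on the minus strand, and mmu-miR-199b-3p has the same 22 bases. The sequences of the mimics themselves were not used here.
mmu-miR-199a-3p: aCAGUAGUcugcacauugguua

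The 250 bases before the start of 3 of the genes are shown, from RefSeq (GRCm38.p6), all on the minus strand and written 5′ to 3′ along the gene. Rbl1 (chr2:157204535-157204784) is the pocket protein gene whose window holds an E2F motif. Cdkn2c (chr4:109666757-109667006) and Cdkn2d (chr9:21291210-21291459) are the inhibitor genes that were at least 2-fold above both controls under hsa-miR-199a-3p. Capitals mark matches to an E2F motif, a GC box or a CCAAT box, described with the promoters further on.
Rbl1: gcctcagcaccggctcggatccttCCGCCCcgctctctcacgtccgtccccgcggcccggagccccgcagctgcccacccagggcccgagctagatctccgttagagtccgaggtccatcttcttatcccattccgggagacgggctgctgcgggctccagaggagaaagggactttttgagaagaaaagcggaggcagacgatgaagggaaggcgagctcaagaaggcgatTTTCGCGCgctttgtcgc
Cdkn2c: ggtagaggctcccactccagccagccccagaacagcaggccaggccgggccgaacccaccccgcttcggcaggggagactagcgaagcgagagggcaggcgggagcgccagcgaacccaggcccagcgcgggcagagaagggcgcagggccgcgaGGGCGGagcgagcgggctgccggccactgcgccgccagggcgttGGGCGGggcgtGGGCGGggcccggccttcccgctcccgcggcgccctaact
Cdkn2d: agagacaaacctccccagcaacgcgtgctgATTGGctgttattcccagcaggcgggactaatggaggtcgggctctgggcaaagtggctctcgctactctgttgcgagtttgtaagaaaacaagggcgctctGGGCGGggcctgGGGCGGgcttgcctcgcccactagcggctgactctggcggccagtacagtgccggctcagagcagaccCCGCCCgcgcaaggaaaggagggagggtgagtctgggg

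The libraries held 31638930 (mock) to 38745528 (hsa-miR-199a-3p) reads assigned to transcripts. Levels are given as CPM, the usual scaling of reads to library size, here after TMM scaling, and all 10 genes passed the minimum mean of 1 CPM, as did 13484 genes in all. A gene met the 2-fold criterion for a microRNA when it differed by 2-fold or more from each control, cel-miR-67 and mock, in the same direction. Ratios carry 95% Clopper-Pearson intervals, which reflect read counting alone and hold no spread between cultures. Amplified reads carry no molecular identifiers and need not stem from separate molecules, so the intervals may be too narrow even for counting. In these bulk samples fewer cells of a type and less RNA per cell cannot be told apart. Of the markers of the labelled cell type, 10 cardiomyocyte genes summed to 61170 CPM in mock, 55592 under cel-miR-67, 42291 under hsa-miR-590-3p and 39337 under hsa-miR-199a-3p. All 10 lay below both controls under each microRNA, and Ryr2, Pln and Ttn met the 2-fold criterion under hsa-miR-199a-3p. Fibroblast markers summed to between 10386 and 12073 CPM, most of it from Col1a1, Col1a2 and Col3a1, which under hsa-miR-199a-3p lay above both controls. There 6 of the 10 fibroblast markers lay below both, with a list median log2 ratio of -0.47 over cel-miR-67 and -0.10 over mock, and Postn met the 2-fold criterion downward at -2.05 and -1.61. Smooth muscle and pericyte markers summed to 4477 CPM in mock, 5368 under cel-miR-67, 5102 under hsa-miR-590-3p and 6398 under hsa-miR-199a-3p. Of the 7 measured, 3 lay above both controls under hsa-miR-199a-3p: Cnn1 (1.21 and 0.88), Acta2 (0.48 and 0.77) and Myh11 (0.20 and 1.13). Another 3 lay below both, of which the pericyte gene Rgs5 met the criterion downward at -1.12 and -1.14, with 43 to 86 reads. Epicardial markers summed to between 282 and 370 CPM. Endothelial markers summed to between 261 and 324 CPM, macrophage and leukocyte markers to between 7.36 and 21.3, and erythroid markers to under 0.373, with Hbb-b1 at 0 in all 4 libraries. The part of these shifts in cell type markers in the results below was not tested.

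Under hsa-miR-199a-3p the retinoblastoma gene Rb1 was lower and the INK4 genes Cdkn2c and Cdkn2d were higher. With 1 of the 10 genes lower, where 2.34% of all genes were, and 2 higher, where 2.4% were, these 3 were the only ones of the 10 to meet the 2-fold criterion for either microRNA. Under hsa-miR-590-3p none of the 10 met it, higher or lower, where 0.349% and 0.23% of all genes did. Between the controls, Cdkn2a was lower under cel-miR-67 than in mock, as were 1.33% of all genes, and no member was higher by 2-fold, where 0.645% of genes were. The plot of read levels shows all 10 genes in the 4 libraries.

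**Figure D1:**
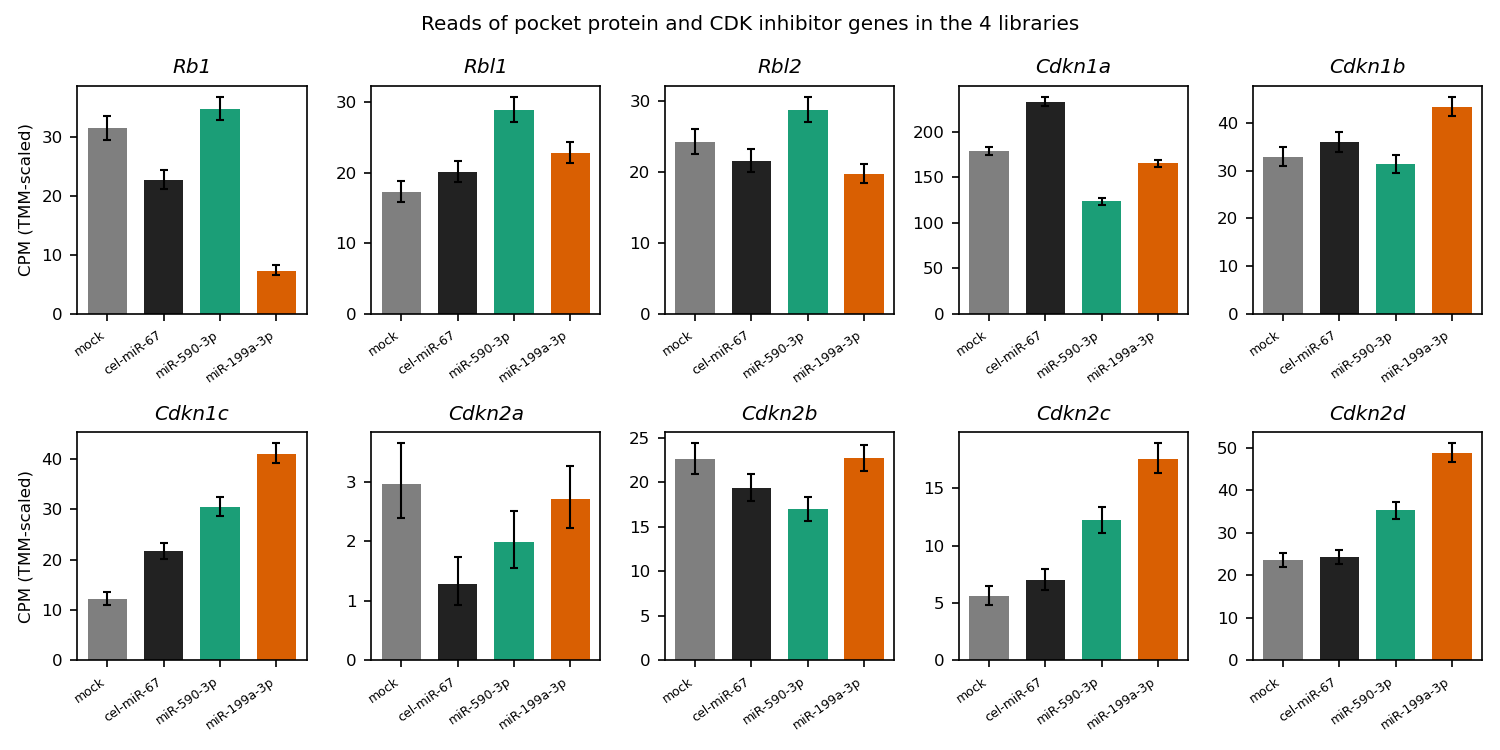
Level of each gene in each library, in CPM after TMM scaling on a linear axis that starts at 0 (scales differ between panels), with 95% counting intervals. Rb1 stands at 7.35 CPM under hsa-miR-199a-3p and between 22.8 and 34.9 in the other libraries, while Cdkn2c and Cdkn2d are highest under hsa-miR-199a-3p.

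Rb1 encodes the retinoblastoma protein, the founding pocket protein. It had 957 reads in mock, 763 under cel-miR-67, 1232 under hsa-miR-590-3p and 296 under hsa-miR-199a-3p, all of them uniquely placed. The hsa-miR-199a-3p library was the lowest of the 4 and the hsa-miR-590-3p library the highest. Rb1 under hsa-miR-199a-3p was 0.323 times its level under cel-miR-67 (0.281 to 0.369) and 0.234 times that in mock (0.204 to 0.266). Among the 13484 genes these were the 77th and the 36th lowest ratios. Under hsa-miR-590-3p it was 1.53 times cel-miR-67 (1.39 to 1.67) and 1.11 times mock (1.02 to 1.21). The controls themselves differed in Rb1, with cel-miR-67 at 0.725 times mock (0.658 to 0.798).

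Rbl1 encodes p107, a pocket protein that is itself made in cycling cells. Its reads numbered 525 in mock, 674 under cel-miR-67, 1023 under hsa-miR-590-3p and 919 under hsa-miR-199a-3p, so that both microRNA libraries were above both controls. The ratio under hsa-miR-590-3p was 1.44 over cel-miR-67 (1.30 to 1.59) and 1.67 over mock (1.51 to 1.86), short of 2-fold. Under hsa-miR-199a-3p it was 1.13 (1.02 to 1.25) and 1.32 (1.19 to 1.47). Uniquely placed reads, 59.1% of the total of Rbl1, gave 1.44 and 1.69 for hsa-miR-590-3p.

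Rbl2 encodes p130, the pocket protein of resting cells and a part of the DREAM repressor complex. It varied least of the 3, with 739 reads in mock, 723 under cel-miR-67, 1019 under hsa-miR-590-3p and 797 under hsa-miR-199a-3p. Only the hsa-miR-590-3p library stood above both controls, at 1.33 times cel-miR-67 (1.21 to 1.47) and 1.19 times mock (1.08 to 1.30). The hsa-miR-199a-3p library was at 0.916 times cel-miR-67 (0.827 to 1.01, which includes equality) and at 0.814 times mock (0.735 to 0.901).

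The make-up of the pocket protein reads therefore differed between libraries. Rb1 supplied 43.1% of the reads of the 3 genes in mock (95% Clopper-Pearson interval 41.0 to 45.2), 35.3% under cel-miR-67 (33.3 to 37.4) and 37.6% under hsa-miR-590-3p (36.0 to 39.3). Under hsa-miR-199a-3p it supplied 14.7% (13.2 to 16.3), below the intervals of the other 3 libraries. There Rbl1 supplied 45.7% (43.5 to 47.9) and Rbl2 39.6% (37.5 to 41.8), against 23.6% to 31.2% and 31.1% to 33.5% elsewhere.

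Cdkn1a encodes p21, a CIP/KIP inhibitor and a classical target of p53. It had the most reads of the 10 genes, 5427 in mock, 7787 under cel-miR-67, 4370 under hsa-miR-590-3p and 6652 under hsa-miR-199a-3p. The hsa-miR-590-3p library was the lowest and cel-miR-67 the highest. Under hsa-miR-590-3p Cdkn1a was 0.531 times cel-miR-67 (0.512 to 0.551) and 0.692 times mock (0.665 to 0.721), so it missed the criterion against both. Under hsa-miR-199a-3p it was 0.710 times cel-miR-67 (0.687 to 0.733) and 0.925 times mock (0.892 to 0.959). The second of these ratios rests on the scaling and on shared reads: it was 1.00 with total counts alone and 1.10 with uniquely placed reads (0.954 to 1.28). Cdkn1a was 1.30 times higher under cel-miR-67 than in mock (1.26 to 1.35), so the choice of control moved its value.

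Cdkn1b encodes p27, which holds cyclin E-CDK2 in check in resting cells. Its reads, all uniquely placed, numbered 999 in mock, 1202 under cel-miR-67, 1106 under hsa-miR-590-3p and 1746 under hsa-miR-199a-3p. The hsa-miR-199a-3p library was the highest, at 1.21 times cel-miR-67 (1.12 to 1.30) and 1.32 times mock (1.22 to 1.43). Under hsa-miR-590-3p the gene was 0.871 times cel-miR-67 (0.802 to 0.946), and its ratio to mock of 0.952 had an interval of 0.873 to 1.04 and turned above 1 with total counts alone.

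Cdkn1c encodes p57, the imprinted CIP/KIP inhibitor of growing embryonic tissues. It had 370 reads in mock, 724 under cel-miR-67, 1076 under hsa-miR-590-3p and 1652 under hsa-miR-199a-3p, and both microRNA libraries were above both controls. Under hsa-miR-199a-3p the ratio was 1.89 over cel-miR-67 (1.74 to 2.07) and 3.37 over mock (3.01 to 3.78), and under hsa-miR-590-3p it was 1.41 (1.28 to 1.55) and 2.50 (2.22 to 2.82). The controls lay 1.78-fold apart (1.57 to 2.02), which is larger than the step from cel-miR-67 to hsa-miR-590-3p. Only 3.40% of the reads of Cdkn1c were uniquely placed, and these, 16, 33, 25 and 56 in the same order of libraries, put hsa-miR-590-3p at 0.720 times cel-miR-67 (0.408 to 1.24) and 1.36 times mock (0.700 to 2.74). For hsa-miR-199a-3p they gave 1.40 over cel-miR-67 (0.898 to 2.23) and 2.63 over mock (1.52 to 5.005), so that of these 4 ratios only the last has an interval above equality. Cdkn1c has 2 records, and reads that fit each of them would not count as unique, so the unique reads are a limited check on the total.

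Cdkn2a encodes 2 proteins from separate first exons, the CDK inhibitor p16 and the p53 activator p19 (Arf). It was the least abundant of the 10 genes by reads, with 90 in mock, 43 under cel-miR-67, 70 under hsa-miR-590-3p and 109 under hsa-miR-199a-3p. Mock and hsa-miR-199a-3p were close, at a ratio of 0.914 (0.685 to 1.22), and cel-miR-67 was the low library, at 0.437 times mock (0.295 to 0.631). Over cel-miR-67 the ratios were 2.09 under hsa-miR-199a-3p (1.47 to 3.07) and 1.53 under hsa-miR-590-3p (1.04 to 2.31). Against mock the hsa-miR-590-3p library was lower instead, at 0.670 (0.482 to 0.924), so its direction turned with the control.

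Cdkn2b encodes p15, an INK4 inhibitor known as a target of TGF-beta signalling. It had 687 reads in mock, 648 under cel-miR-67, 599 under hsa-miR-590-3p and 913 under hsa-miR-199a-3p, all uniquely placed. Only the hsa-miR-590-3p library stood apart from both controls, at 0.875 times cel-miR-67 (0.781 to 0.979) and 0.750 times mock (0.671 to 0.838). The hsa-miR-199a-3p library was 1.17 times cel-miR-67 (1.06 to 1.30) and 1.00 times mock (0.907 to 1.11).

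Cdkn2c encodes p18, an INK4 inhibitor. It had 170 reads in mock, 234 under cel-miR-67, 431 under hsa-miR-590-3p and 707 under hsa-miR-199a-3p, all uniquely placed. Both microRNA libraries were above both controls, and hsa-miR-199a-3p was the higher. Under hsa-miR-199a-3p the ratio was 2.51 over cel-miR-67 (2.16 to 2.92) and 3.13 over mock (2.65 to 3.73). Under hsa-miR-590-3p it was 1.74 over cel-miR-67 (1.48 to 2.05) and 2.18 over mock (1.82 to 2.62), so the criterion was met against mock alone. Of the 10 genes, Cdkn2c had the highest ratio over cel-miR-67 under each microRNA by total reads.

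Cdkn2d encodes p19 (INK4d), an inhibitor of CDK4 and CDK6 distinct from Arf. Its reads numbered 715 in mock, 813 under cel-miR-67, 1246 under hsa-miR-590-3p and 1965 under hsa-miR-199a-3p, and the controls were nearly level at a ratio of 1.03 (0.933 to 1.14). Under hsa-miR-199a-3p it was 2.01 times cel-miR-67 (1.85 to 2.18) and 2.07 times mock (1.90 to 2.26), just past the criterion, with intervals that reach below it. Under hsa-miR-590-3p it was 1.45 times cel-miR-67 (1.33 to 1.59) and 1.50 times mock (1.37 to 1.64). Although Cdkn2d has a single record, 5.32% of its reads were uniquely placed, 37, 40, 79 and 96 in the same order. On these the hsa-miR-199a-3p ratio was 1.98 over cel-miR-67 (1.36 to 2.95) and 1.97 over mock (1.35 to 2.99), which is short of the criterion.

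**Figure D2:**
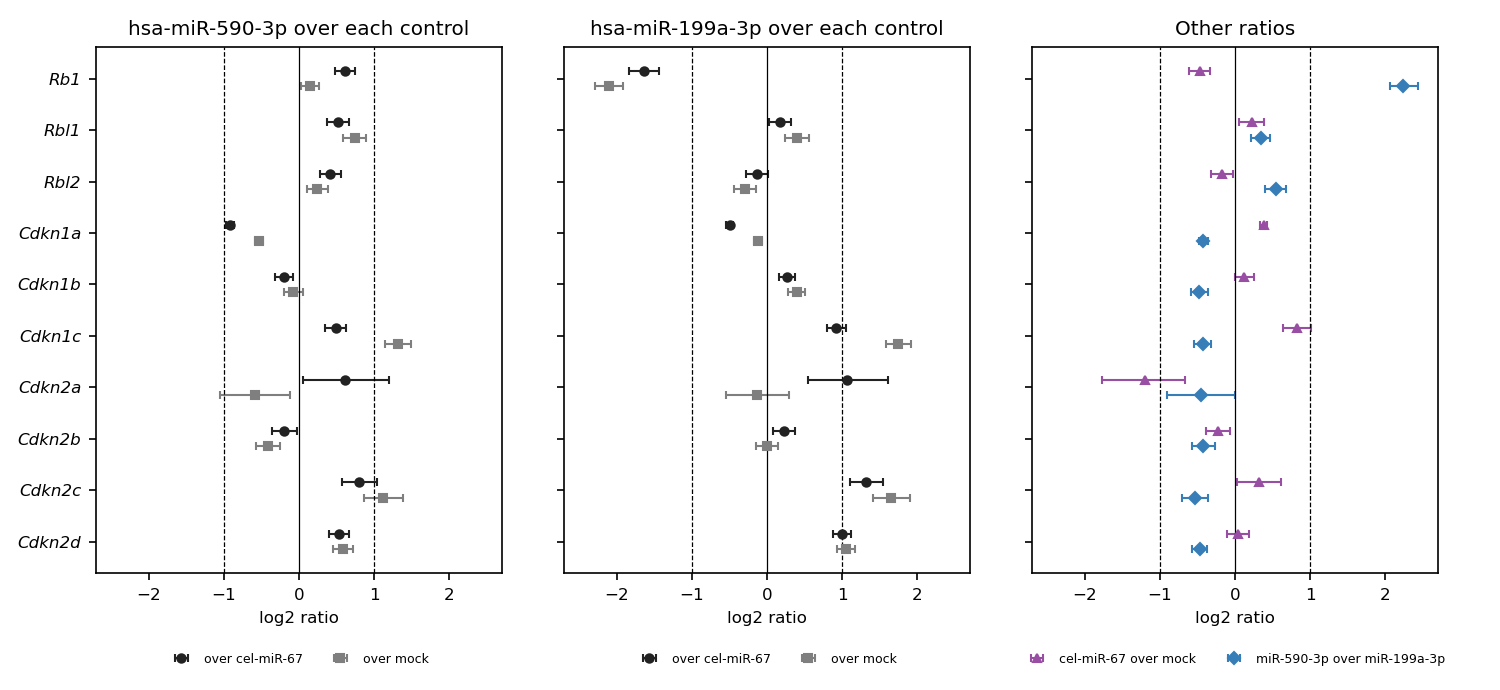
Log2 ratios of the 10 genes for each microRNA over each control (left and middle) and for the controls and the microRNAs against each other (right). Bars are 95% counting intervals and dashed lines mark 2-fold. Rb1 lies beyond the lower line under hsa-miR-199a-3p against both controls, and Cdkn2c and Cdkn2d at or beyond the upper one.

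Read by direction alone, Rbl1, Cdkn1c, Cdkn2c and Cdkn2d were above both controls under both microRNAs, 4 of 10 where 21.3% of all genes were, though Cdkn1c does not keep this for hsa-miR-590-3p on uniquely placed reads. Cdkn1a was the only one of the 10 below both under both, where 21.6% of genes were, with the exception against mock given above. Rb1 and Rbl2 were above both controls under hsa-miR-590-3p and below both under hsa-miR-199a-3p, 2 of 10 where 9.62% of genes were. The reverse held for Cdkn1b and Cdkn2b, 2 of 10 where 9.87% were, but the ratios of Cdkn1b to mock under hsa-miR-590-3p and of Cdkn2b to mock under hsa-miR-199a-3p had intervals that include equality. Under hsa-miR-199a-3p, 6 of the 10 were above both controls (40.2% of all genes) and 3 below both (41.9%), and under hsa-miR-590-3p also 6 (35.6%) and 3 (36.5%). The median log2 ratio over the 10 genes was 0.25 against cel-miR-67 and 0.20 against mock for hsa-miR-199a-3p, and 0.51 and 0.20 for hsa-miR-590-3p, beside medians over all genes between -0.01 and 0.00. By family, under hsa-miR-199a-3p the medians were -0.13 and -0.30 for the pocket proteins, 0.27 and 0.40 for CIP/KIP and 1.04 and 0.53 for the 4 INK4 and Arf genes (1.00 and 1.05 without Cdkn2a, most of whose unique reads were of Arf). Under hsa-miR-590-3p they were 0.52 and 0.25, -0.20 and -0.07 (0.02 with total counts alone), and 0.58 and 0.08 (0.54 and 0.58 without Cdkn2a).

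The libraries of the 2 microRNAs can also be set against each other, which leaves the shared controls out. The 3 pocket protein genes were all higher in the hsa-miR-590-3p library than in that of hsa-miR-199a-3p, and all 7 CDK inhibitor genes were lower. Of all genes tested, 50.3% were higher and 49.7% lower in this ratio. The directions held for all 10 genes under every alternative scaling and count that was run. For Rb1 the ratio was 4.73 (4.17 to 5.40), the 9th highest of 13484, and it was the only one of the 10 to pass 2-fold, where 2.7% of genes did upward and 1.87% downward. Rbl2 stood at 1.46 (1.33 to 1.60) and Rbl1 at 1.27 (1.16 to 1.39). By total reads the inhibitors lay in a narrow range of log2 ratios, from -0.53 for Cdkn2c to -0.42 for Cdkn1a, with a median of -0.45 against 0.00 over all genes. On uniquely placed reads that range widened, to between -0.96 for Cdkn1c and -0.09 for Cdkn2d. The interval of the ratio then included 1 for Cdkn2d, at 0.939 (0.688 to 1.28), and for Cdkn2a, at 0.661 (0.375 to 1.12), and did not for Cdkn1c, at 0.514 (0.305 to 0.830).

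**Figure D3:**
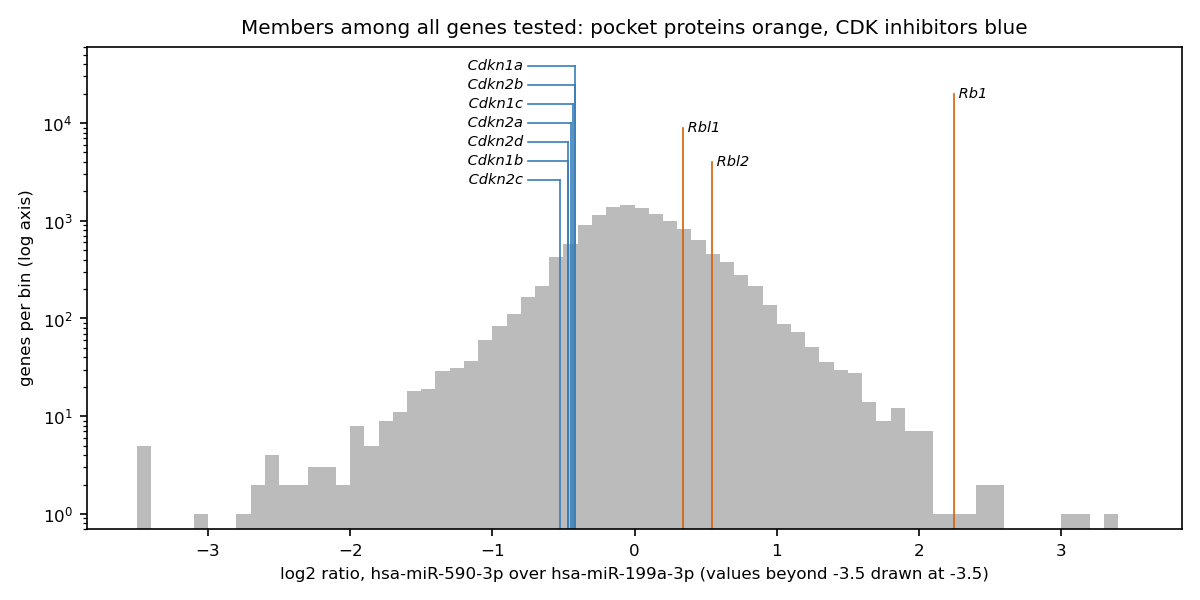
Log2 ratio of hsa-miR-590-3p over hsa-miR-199a-3p for all 13484 genes (grey, log count axis), with the 10 genes as lines whose heights carry no value. The 7 inhibitors sit between -0.53 and -0.42, Rbl1 and Rbl2 at 0.34 and 0.54, and Rb1 at 2.24.

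Levels between genes were compared per length, as the authors' RPKM (reads scaled to record length and library size, without TMM scaling) summed over the records of a gene. Cdkn1a was the highest of the 10 in every library, at 89.7 RPKM in mock, 118.9 under cel-miR-67, 66.3 under hsa-miR-590-3p and 89.8 under hsa-miR-199a-3p. With TMM scaling its RPKM was 93.4 in mock and 86.4 under hsa-miR-199a-3p. Cdkn2d was second in every library, at 17.8, 18.7, 28.4 and 39.9 RPKM. These values count shared reads: 6.34% of the reads of Cdkn1a, 5.32% of Cdkn2d and 3.40% of Cdkn1c were uniquely placed. For Rb1, Cdkn1b, Cdkn2b and Cdkn2c all reads were. Cdkn1a and Cdkn1c have 2 records each, and reads shared only between records of the same gene stay with that gene in the sum. Cdkn2d has 1 record. Which records share the reads was not worked out, so the places of Cdkn1a, Cdkn2d and Cdkn1c are less firm where other genes share them. In mock the order went on with Cdkn2b at 15.6 RPKM, Cdkn1b at 13.1, Rb1 at 6.52, Cdkn1c at 6.08, Cdkn2c at 4.80, Rbl2 at 4.77, Rbl1 at 3.40 and Cdkn2a at 3.09. Under hsa-miR-199a-3p Cdkn1c had moved up to 22.1 RPKM, next after Cdkn2d, and Rb1 to the last with 1.65, below Cdkn2a with 3.03. Between those places were Cdkn1b at 18.7, Cdkn2b at 16.9, Cdkn2c at 16.3, Rbl1 at 5.13 and Rbl2 at 4.20 RPKM. With 1 library each, neighbours such as Cdkn2c and Rbl2 in mock, or Cdkn2b and Cdkn2c under hsa-miR-199a-3p, have no spread by which to order them.

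Summed per family, the 4 INK4 and Arf genes were at 41.3 RPKM in mock, 39.7 under cel-miR-67, 54.3 under hsa-miR-590-3p and 76.2 under hsa-miR-199a-3p. With TMM scaling these 4 sums were 43.0, 40.7, 52.9 and 73.3, and the other sums here carry no such scaling. Without Cdkn2a the unscaled sums were 38.2, 38.4, 52.1 and 73.1. The CIP/KIP sum, mostly Cdkn1a, was 108.9, 144, 95.9 and 131 RPKM, so the microRNA libraries did not both lie on one side of the controls. Pocket protein genes summed to 14.7, 13.4, 20.02 and 10.98 RPKM, highest under hsa-miR-590-3p and lowest under hsa-miR-199a-3p. Among the 7 inhibitors Cdkn1a made up 59.7% of the RPKM in mock and 64.6% under cel-miR-67, 44.2% under hsa-miR-590-3p and 43.4% under hsa-miR-199a-3p. The share of Cdkn2d was 11.8%, 10.1%, 18.9% and 19.3% in the same order. Cdk4, the main partner of the INK4 proteins, was at 85.1, 93.3, 109.4 and 133 RPKM and Cdk6 at 9.34, 8.58, 9.95 and 6.50. The RPKM of Cdkn2b, Cdkn2c and Cdkn2d together, divided by that of Cdk4 and Cdk6, came to 0.404, 0.376, 0.437 and 0.524. Transcript ratios of this kind say nothing of protein, and the sums and shares above count shared reads too.

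**Figure D4:**
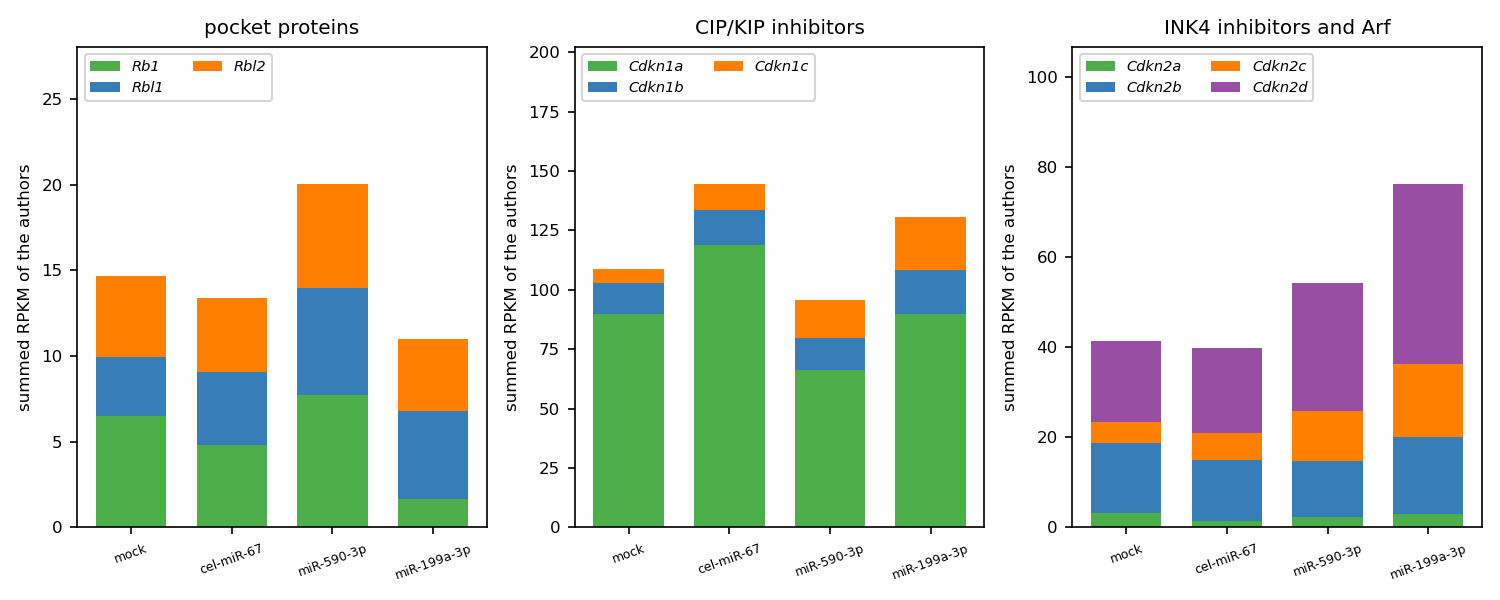
Stacked RPKM of the members of each family in each library (linear axes from 0, scales differ between panels, no error bars since there is 1 library each). Rb1 narrows to 1.65 RPKM under hsa-miR-199a-3p, and the INK4 and Arf column grows from 39.7 under cel-miR-67 to 76.2, mostly through Cdkn2d and Cdkn2c. RPKM here carries no TMM scaling and counts shared reads, which make up most of those of Cdkn2d.

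The 14 records separate some transcript variants. For Cdkn2a, the uniquely placed reads fell almost entirely on the record of transcript variant 1, which encodes Arf, with 33 in mock, 16 under cel-miR-67, 22 under hsa-miR-590-3p and 39 under hsa-miR-199a-3p. The record that encodes p16 had 2, 1, 1 and 1, too few to compare. The short record of Rbl1 took 0.962% of its unique reads in mock (0.199% to 2.78%), 3.80% under cel-miR-67 (2.14% to 6.19%), 1.99% under hsa-miR-590-3p (1.03% to 3.45%) and 4.76% under hsa-miR-199a-3p (3.13% to 6.90%). These shares do not separate the microRNAs from the controls. The longer Cdkn1a record took 7.35% to 9.39% of its unique reads, with overlapping intervals in all 4 libraries. For Cdkn1c the longer record had 3 of 16 unique reads in mock and 14 of 33 under cel-miR-67, 9 of 25 under hsa-miR-590-3p and 20 of 56 under hsa-miR-199a-3p, and the intervals again overlapped. The files state no strand setting, so reads of overlapping antisense genes cannot be told apart from those of the members.

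**Figure D5:**
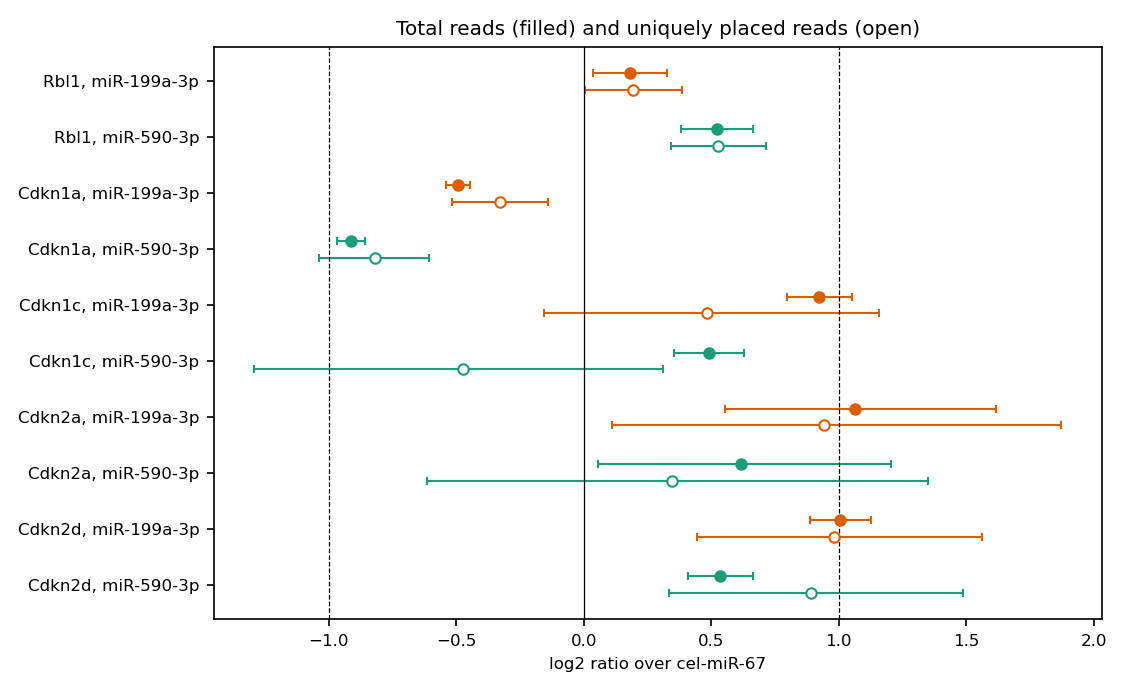
Log2 ratio over cel-miR-67 from total reads (filled) and from uniquely placed reads (open), with 95% counting intervals and dashed lines at 2-fold. The 5 genes are those with the lowest shares of unique reads, from 3.40% for Cdkn1c to 59.1% for Rbl1. The intervals of each pair overlap except for Cdkn1c under hsa-miR-590-3p, which changes side, from 0.49 to -0.47.

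Promoter windows from 250 bases before to 50 after the start were given for 8 of the 10 genes, 11 windows in all, with none used for Rb1 and Cdkn1c. They were searched on both strands for the E2F letters TTTCCCGC, TTTGGCGC, TTTCGCGC and TTTGCCGC counted together, for the CHR letters TTTGAA, for the GC box GGGCGG and for the CCAAT box CCAAT. An E2F match lay in the Rbl1 window, bases -18 to -11, and in the Arf window of Cdkn2a, bases -99 to -92, where the base before the start is -1. Among the 32851 windows of all genes, 2.26% hold such a match. The CHR letters, found in 17.9% of windows, occurred in those of Rbl2 (-201 to -196) and Cdkn2b (-161 to -156). GC boxes, in 35.7% of windows, were found in at least 1 window of each of the 8 genes, with 4 in one window of Cdkn2c and 5 in that of Cdkn2d. The first Cdkn1a window and the second Cdkn2c window held 0, and the share of 35.7% is per window, not per gene. CCAAT boxes, in 37.4% of windows, occurred for Cdkn2d (-220 to -216), for Cdkn1b, in the second Cdkn2c window and in the p16 window of Cdkn2a, where it overlaps a GC box. The matches are letters only and carry no measure of binding.

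Around these genes, E2F target genes are those that pocket proteins hold shut by binding E2F. This list and those that follow were chosen with earlier results of these data known, so their counts are no independent check. All 20 E2F target genes listed lay above both controls under each microRNA. Of all genes 40.2% did under hsa-miR-199a-3p and 35.6% under hsa-miR-590-3p. Under hsa-miR-199a-3p 6 met the 2-fold criterion, as did 2.4% of all genes in that direction, and the median log2 ratios were 0.94 over cel-miR-67 and 0.95 over mock, beside -0.00 and -0.01 over all genes. Under hsa-miR-590-3p 1 met it, where 0.349% of all genes did, with medians of 0.53 and 0.65. Dut, the dUTPase that keeps uracil out of DNA, had 588 reads in mock, 580 under cel-miR-67, 1007 under hsa-miR-590-3p and 1966 under hsa-miR-199a-3p, with log2 ratios of 1.49 and 1.33 for the last. Tk1, thymidine kinase, was the gene past 2-fold under both, with 1.30 and 1.34 under hsa-miR-199a-3p and 1.12 and 1.15 under hsa-miR-590-3p. Rrm1, the large subunit of ribonucleotide reductase and the member with most reads, had 0.47 and 0.72, and 0.15 and 0.39.

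The activator E2F and DP factors, the partners of the pocket proteins, were above both controls in 5 of 5 under each microRNA. Of all genes 40.2% were under hsa-miR-199a-3p and 35.6% under hsa-miR-590-3p. Median log2 ratios were 0.84 and 0.79 under hsa-miR-199a-3p, and 0.61 and 0.51 under hsa-miR-590-3p. Under hsa-miR-199a-3p 2 of the 5 met the criterion, higher (2.4% of all genes), and 1 did under hsa-miR-590-3p (0.349%). E2f2 met the criterion under both, with 82, 90, 198 and 495 reads in the order used above and log2 ratios of 2.19 and 2.18 under hsa-miR-199a-3p and of 1.05 and 1.05 under hsa-miR-590-3p. E2f1 met it under hsa-miR-199a-3p alone with 1.04 and 1.27, and had 0.75 and 0.97 under hsa-miR-590-3p. Tfdp1, the DP partner with most reads, had 0.84 and 0.79, and 0.17 and 0.12. Of 5 repressor E2F genes none met the criterion under either microRNA. Under each, 4 lay above both controls, beside the 40.2% and 35.6% of all genes, E2f6 among them at 0.54 and 0.47 under hsa-miR-199a-3p.

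Of the kinase side, 5 of 5 measured genes for cyclins E and A, CDK2 and CDC25A were above both controls under each microRNA. Of all genes 40.2% were under hsa-miR-199a-3p and 35.6% under hsa-miR-590-3p. Ccne1, cyclin E1, met the criterion under hsa-miR-199a-3p with log2 ratios of 1.32 and 1.48, and Ccna2, cyclin A2, with 1.26 and 1.46. Of all genes 2.4% were higher by it there. Under hsa-miR-590-3p none of these genes met it, where 0.349% of all genes were higher. D-type cyclins and their kinases gave no gene past the criterion out of 5 under either microRNA. Under hsa-miR-199a-3p 3 of them lay above both controls (40.2% of all genes) and 2 below both (41.9%). Under hsa-miR-590-3p 1 lay above both (35.6%) and 1 below both (36.5%). Ccnd2, cyclin D2 and the most abundant, had log2 ratios of -0.52 and -0.33 under hsa-miR-199a-3p and -0.26 and -0.07 under hsa-miR-590-3p. List medians were 0.91 over cel-miR-67 and 0.98 over mock for cyclins E and A under hsa-miR-199a-3p, and 0.18 and 0.53 for the D-type list. In the same libraries the cardiomyocyte markers lay below both controls, as given above.

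Among 12 corepressors that work with RB, 1 met the criterion under hsa-miR-199a-3p, downward, as did 2.34% of all genes in that direction. This was Kdm5a, a histone demethylase found as an RB-binding protein. It had 2996 reads in mock, 3295 under cel-miR-67, 3564 under hsa-miR-590-3p and 1500 under hsa-miR-199a-3p, with log2 ratios of -1.40 and -1.40. Like Rb1, it was low in that library alone. Cbx5, the heterochromatin protein with most reads in this list, had 0.26 and -0.03, and under hsa-miR-590-3p no corepressor met the criterion. The 12 had medians of 0.12 and 0.08 under hsa-miR-199a-3p and of 0.17 and 0.17 under hsa-miR-590-3p. Under hsa-miR-590-3p 10 lay above both controls (35.6% of all genes), and under hsa-miR-199a-3p 6 did (40.2%). Another list of 6 genes held those of the DREAM complex core (Lin9, Lin37, Lin52, Lin54 and Rbbp4) and Mybl2, which encodes B-Myb. Of these only Mybl2 met the criterion under hsa-miR-199a-3p, with 1.21 and 1.02, where 2.4% of all genes did upward. No gene of the core met it there. None did under hsa-miR-590-3p, and Rbbp4 had 0.36 and 0.31 under hsa-miR-199a-3p.

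The 12 genes for degradation of KIP inhibitors and pocket proteins held 2 past the criterion under hsa-miR-199a-3p and 1 under hsa-miR-590-3p, all higher, where 2.4% and 0.349% of all genes were. The list medians were 0.24 and 0.11 under hsa-miR-199a-3p and 0.18 and 0.21 under hsa-miR-590-3p. Dtl, the CRL4 substrate receptor that targets p21 in S phase, had 386 reads in mock, 388 under cel-miR-67, 1022 under hsa-miR-590-3p and 1085 under hsa-miR-199a-3p. Its log2 ratios were 1.32 and 1.19 under hsa-miR-590-3p and 1.21 and 1.08 under hsa-miR-199a-3p. Cdc20, an activator of the anaphase-promoting complex, had 1.21 and 1.42 under hsa-miR-199a-3p. Ddb1, the most abundant, had 0.24 and 0.06 there.

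None of the 27 measured genes that regulate CDK inhibitor transcription met the criterion under either microRNA. Of all genes 2.4% were higher and 2.34% lower by it under hsa-miR-199a-3p, and 0.349% and 0.23% under hsa-miR-590-3p. Under hsa-miR-199a-3p 8 of the 27 lay above both controls (40.2% of all genes) and 16 below both (41.9%). Under hsa-miR-590-3p 12 lay above both (35.6%) and 7 below both (36.5%). Mdm2, the p53 ligase with most reads, had log2 ratios of -0.21 and -0.14 under hsa-miR-199a-3p and -0.12 and -0.04 under hsa-miR-590-3p. Of 14 p53 targets other than Cdkn1a none met it under either, and 8 lay below both controls under hsa-miR-590-3p, where 36.5% of all genes did, with medians of -0.25 against cel-miR-67 and -0.06 against mock, the second of which became 0.03 with total counts alone. Under hsa-miR-199a-3p 7 of them lay above both controls (40.2% of all genes) and 5 below both (41.9%), with medians of 0.05 and 0.28. Ccng1, cyclin G1 and the most abundant of them, had 10500 reads in mock, 17564 under cel-miR-67, 6511 under hsa-miR-590-3p and 10503 under hsa-miR-199a-3p. As for Cdkn1a, cel-miR-67 was its highest library and hsa-miR-590-3p its lowest, with log2 ratios of -1.51 over cel-miR-67 and -0.91 over mock.

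For each gene that met the criterion, the 3 genes most like it over the 4 libraries were sought among 8859 genes with at least 10 CPM, as the smallest distance between centred log2 levels. For Cdkn2c these were Spag5 (0.10), Bub1b (0.11) and Espl1 (0.12), all known for work on the mitotic spindle or on chromosome separation. Bub1b had 862 reads in mock, 1122 under cel-miR-67, 2209 under hsa-miR-590-3p and 3764 under hsa-miR-199a-3p. For Rb1 they were Slc25a13 (0.24), a mitochondrial carrier with 1.31% of its reads placed uniquely, the chemokine Ccl2 (0.25) and the neuregulin receptor Erbb4 (0.25). Erbb4 had 417, 380, 556 and 115 reads in that order, low under hsa-miR-199a-3p and highest under hsa-miR-590-3p like Rb1. For Cdkn2d they were Igsf9b (0.05), with 39.7% of reads placed uniquely, Ttyh3 (0.05) and Ccdc99 (0.06). With 4 libraries, closeness of this kind describes these libraries only.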

How the data were processed

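Total RNA (miRNeasy) of 4 cultures was sequenced after TruSeq library preparation, per the labels' protocols. Per the file headers, the authors deposited for each RefSeq record a count of total reads, a count of uniquely placed reads and an RPKM value, which the column of expression values repeats. CASAVA 1.8 and mm8 are named in the submitters' processing notes, with no role, beside an aligner not given in the sources used here. Samples were grouped by the treatment in the labels.

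Counts of all records of a symbol were summed, as total reads include reads shared with other records. TMM factors came from edgeR 4.0.16 (R 4.3.3), used for scaling only, since 1 library per group leaves 0 residual degrees of freedom. Log2 ratios were taken for genes averaging 1 CPM or more, with 0.5 added to each count as a prior. Reads numbered 31638930 in mock, 34255689 under cel-miR-67, 38745528 under hsa-miR-199a-3p and 34452240 under hsa-miR-590-3p, with 67.6% to 68.7% uniquely placed, and 3 reads correspond to 0.0745 to 0.0987 CPM. The ratio script was tested on simulated data. Alternatives were total-count scaling, DESeq2 1.42.0 size factors, unique reads, a prior of 2, other filters (none, 5 CPM), the authors' RPKM (pseudocount 0.1), symbols by accession (27926 records matched), each control alone and the record with most reads alone.

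Named were all 10 genes and, for each gene list, up to 2 members per direction past 2-fold, with 50 reads or more in the higher library, and the member with most reads. For each of the 10 that met it, the 3 most alike genes were named. Cdk4 and Cdk6 were named as the kinases the INK4 proteins bind, and the marker genes after their values were seen. The 10 genes and the lists were chosen with earlier results of these data known. Sequences are from RefSeq tables of GRCm38.p6, another build than the files name, so no other coordinates are given. Python 3.11.15 was used with numpy 2.4.6, pandas 2.3.3, scipy 1.17.1 and matplotlib 3.10.9.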

Additional observations from a re-analysis of the deposited data

Results flagged for a closer look

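4 of the 10 genes lay above both controls in one microRNA library and below both in the other, and this difference between the 2 microRNAs was not tested, since there was 1 library of each. As the log2 ratio of hsa-miR-590-3p over hsa-miR-199a-3p, it was 2.24 for Rb1, 0.54 for Rbl2, -0.47 for Cdkn1b and -0.42 for Cdkn2b. For Rb1 the ratio was past 2-fold, and for the other 3 it was not. Of all genes 9.62% lay on the sides that Rb1 and Rbl2 did, above under hsa-miR-590-3p and below under hsa-miR-199a-3p. The reverse, as for Cdkn1b and Cdkn2b, held for 9.87%. The opposite sides of the controls are least firm for Cdkn1b, whose ratio to mock under hsa-miR-590-3p was 0.952 (0.873 to 1.04), and for Cdkn2b, whose ratio to mock under hsa-miR-199a-3p was 1.00 (0.907 to 1.11).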

How the results depend on the processing

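No paired analysis was possible because each condition had 1 library, and none could be left out. Of 498 ratios of the 10 genes under the alternatives, 471 stayed within the counting interval, 7 turned direction and none past 2-fold reversed. Those that turned were Cdkn1a under hsa-miR-199a-3p over mock (log2 0.00 with total counts and with RPKM, 0.14 with unique reads), Cdkn1b under hsa-miR-590-3p over mock (0.02 with total counts and with RPKM), Cdkn1c under hsa-miR-590-3p over cel-miR-67 (-0.47 with unique reads) and Cdkn2d between the controls (-0.00 with unique reads). Under hsa-miR-199a-3p 2 to 4 of the 10 met the criterion: Cdkn2d dropped out on unique reads, Cdkn1c joined with total counts, RPKM or mock as the sole control, and Cdkn2a joined with cel-miR-67 as the sole control. Under hsa-miR-590-3p mock as the sole control gave 2, Cdkn1c and Cdkn2c, in place of 0. Between the controls the filter at 5 CPM removed Cdkn2a and left 0.

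Counts over all genes moved with the filter and the controls. For hsa-miR-199a-3p, 639 genes met the criterion, 2642 with no filter, 402 at 5 CPM, 1029 with cel-miR-67 alone and 1037 with mock alone. For hsa-miR-590-3p these were 78, 1534, 30, 312 and 245. Between the controls 266 became 3357 with no filter and 128 at 5 CPM, and between the microRNAs 616 became 4124 and 354. Total-count scaling shifted the median of all genes by up to 0.11 (hsa-miR-199a-3p over mock). With it the share of higher among the genes past 2-fold moved from 50.7% to 63.2% for hsa-miR-199a-3p and from 60.3% to 73.3% for hsa-miR-590-3p. RPKM gave 63.4% and 72.6%, no filter 61.5% for hsa-miR-199a-3p, and cel-miR-67 as the sole control 71.2% for hsa-miR-590-3p. Between the microRNAs it moved from 59.1% to 44.3% with no filter and 70.3% at 5 CPM, and between the controls from 32.7% to 51.7% with no filter. For hsa-miR-199a-3p the filter at 5 CPM turned the balance, to 41.5% higher (167 genes higher and 235 lower). The medians of the INK4 and Arf genes without Cdkn2a were computed after seeing the data. The cause of these moves was not tested. Depth limits Cdkn2a most, with at most 109 reads.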
